A study of Mus musculus with 87 samples.

Results

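The cingulate cortex of 6 inbred mouse strains was compared on 13 arrays, chosen as every array whose title names that region, out of 87 arrays in the series. A/J had 3 arrays, and 2 arrays each came from C57BL/6J, FVB/NJ, DBA/2J, 129S6/SvEvTac and C3H/HeJ mice. All mice were wild-type males 8 weeks old, with no treatment named in the labels. Each array held RNA of 1 or 2 mice of its strain, and 50 ng of that RNA was amplified in 2 rounds before labelling. The wider study measured the same strains in other brain regions and in the pituitary gland on Affymetrix MG_U74Av2 arrays, on which a probe set is a group of short probes for 1 transcript.

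The cingulate cortex is a midline part of the cerebral cortex that takes part in emotion, attention, pain and the appraisal of threat, and it is connected with the amygdala and the hippocampus. It holds layers of glutamatergic projection neurons, GABA interneurons that inhibit them, and glia, with the corpus callosum and its myelin lying directly beneath. Inbred strains are genetically uniform within a strain and differ from each other at many sites in the genome, so a difference in RNA level that is shared by all mice of a strain can mark a heritable difference in expression or in the transcript itself.

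The arrays had comparable signal. Median intensity was 44.8 to 54.9, with upper quartiles of 165.0 to 173.3. Replicates of a strain correlated at 0.958 to 0.977 over 8 pairs, and arrays of different strains at 0.931 to 0.965 over 70 pairs. Each strain label was checked against 200 probe sets that distinguish the strains in 4 other brain regions. All 13 arrays matched their own strain best, at r of 0.737 to 0.859, while the highest r with another strain's profile was 0.073. The log2 ratio of 3' to 5' signal was 2.02 to 2.94 for Gapdh and 2.21 to 3.21 for beta-actin, with both lowest values in C3H/HeJ replicate 2. The arrays were scanned on 6 days, and no other cingulate array was scanned on the day of the 2 FVB/NJ arrays, so that for FVB/NJ strain and scan day cannot be told apart. Both C57BL/6J arrays shared their day, and their chip lot, with 129S6/SvEvTac replicate 2 alone. All arrays of C57BL/6J and FVB/NJ, 129S6/SvEvTac replicate 2 and A/J replicate 2 had 2 scans, and the others had 1. No mouse was shared between cingulate arrays. The number of arrays limits the precision, and every p-value reflects the spread between these few arrays alone. Bulk tissue was measured, so a larger number of cells of one type and more RNA per cell cannot be told apart.

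Strain differences were called in a minority of transcripts. Of 12422 probe sets, 7041 (standing for 5410 named genes) were bright enough in at least 1 strain to be tested. A gene that was dim in all other strains thus entered the test through the strain in which it was high. Of these, 346 (4.91%) differed among the 6 strains in limma's moderated F test at an adjusted p below 0.05, and 1327 (18.8%) at an unadjusted p below 0.05. The 346 probe sets include 281 named genes. The gap between the highest and the lowest strain mean had a median of 0.55 on the log2 scale over all tested probe sets and 1.39 over those past the test, and in 313 of the 346 it was at least 2-fold. With 2 or 3 arrays a strain, small differences were less likely to pass the test, so these sizes describe the probe sets called. All log2 differences and folds are on the scale of log2(intensity + 16), which understates the fold of dim probe sets, and errors are limma's standard errors (SE).

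Each strain mean was next set against the average of the other 5, and a probe set was called where limma's adjusted p was below 0.05 and the difference reached 2-fold. C57BL/6J had 91 calls (1.29% of the tested probe sets), of which 42 (0.597%) were higher and 49 (0.696%) lower. In 129S6/SvEvTac there were 58 calls (0.824%), 19 (0.27%) higher and 39 (0.554%) lower. FVB/NJ had 50 calls (0.71%), 16 (0.227%) higher and 34 (0.483%) lower. A/J had 36 (0.511%), 11 (0.156%) higher and 25 (0.355%) lower, and DBA/2J also had 36 (0.511%), 16 (0.227%) higher and 20 (0.284%) lower. C3H/HeJ had 30 (0.426%), 13 (0.185%) higher and 17 (0.241%) lower. The 301 calls fall on 214 probe sets (3.04%), since a transcript shared by some of the strains can be called in several of them.

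Without the fold minimum, 357 probe sets (5.07%) passed for C57BL/6J. The counts were 91 (1.29%) for 129S6/SvEvTac, 87 (1.24%) for FVB/NJ, 73 (1.04%) for A/J, 66 (0.937%) for DBA/2J and 48 (0.682%) for C3H/HeJ. Pairs of strains were compared by the same rule with the fold minimum. C57BL/6J differed from FVB/NJ at 157 probe sets (2.23%), from DBA/2J at 136 (1.93%), from 129S6/SvEvTac at 131 (1.86%), from A/J at 111 (1.58%) and from C3H/HeJ at 101 (1.43%). Every pair with C57BL/6J thus had more calls than any pair without it. The fewest were found between C3H/HeJ and DBA/2J, at 41 probe sets (0.582%), of which 22 were higher in C3H/HeJ and 19 in DBA/2J. C3H/HeJ differed from A/J at 53 (0.753%), from FVB/NJ at 60 (0.852%) and from 129S6/SvEvTac at 70 (0.994%). Among the remaining pairs, 129S6/SvEvTac differed from DBA/2J at 100 (1.42%), from FVB/NJ at 91 (1.29%) and from A/J at 84 (1.19%). FVB/NJ differed from A/J at 78 (1.11%) and from DBA/2J at 73 (1.04%), and A/J differed from DBA/2J at 72 (1.02%). These counts rest on 2 or 3 arrays a strain, and those of C3H/HeJ, DBA/2J and FVB/NJ moved by over 1.5 times when 1 array was left out. C3H/HeJ had 13 calls without its replicate 2, DBA/2J had 21 without its replicate 1, and FVB/NJ had 33 without its replicate 1 and 24 without its replicate 2.

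**Figure D1:**
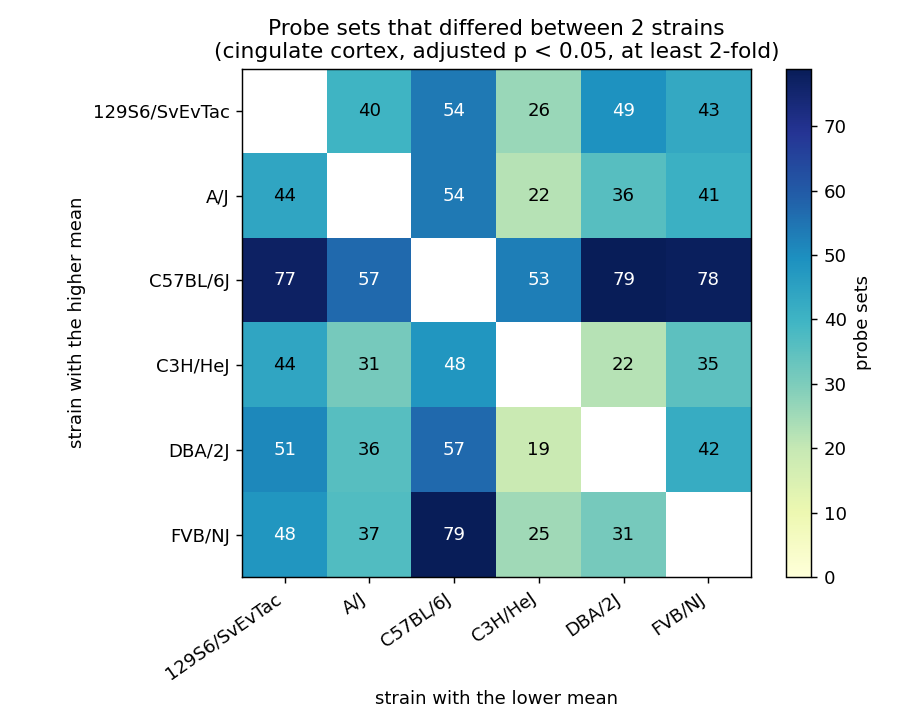
Number of probe sets that differed between each pair of strains in the cingulate cortex (adjusted p below 0.05 and at least 2-fold), with the strain of the higher mean in the row and of the lower mean in the column. The row and column of C57BL/6J hold the largest numbers, up to 79, and the cells of C3H/HeJ with DBA/2J the smallest, 22 and 19.

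Among the 15 genes with the largest F, some split the strains into a high and a low block, some set a single strain apart, and some had intermediate strains. Gas5, a long noncoding RNA that hosts small nucleolar RNAs in its introns, had the largest F (106, adjusted p = 1.32e-06). Its intensity was 2530 and 2378 in C57BL/6J, 2429 and 2541 in FVB/NJ, and 1904 and 2279 in DBA/2J. It was 559, 685 and 565 in A/J, 335 and 384 in 129S6/SvEvTac, and 356 and 352 in C3H/HeJ. No array of the first 3 strains came near an array of the last 3, and the strain means spanned 6.76-fold. A dimmer probe set of Gas5 was also higher on every array of the first 3 strains than on any of the others, from a mean of 114 ± 17 in FVB/NJ to 28.6 ± 7.96 in C3H/HeJ (SD over 2 arrays each). Snhg6, another small nucleolar RNA host, was high in a single strain. It measured 248 and 270 in C57BL/6J against 15.6 to 44.7 on the other 11 arrays, a log2 difference of 2.57 ± 0.16 (5.96-fold, adjusted p = 1.39e-06). Snhg6 reached the level needed for a test only through C57BL/6J, and its call was kept with no filter on low values. Snhg11 was low in a single strain, at 212 and 255 in DBA/2J against 803 to 1497 elsewhere, a log2 difference of -2.22 ± 0.18 (adjusted p = 1.85e-05). Snhg1 was also low in DBA/2J, at 109 and 131 against 230 to 350 elsewhere (log2 difference -1.11 ± 0.17, adjusted p = 0.00517).

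Small nucleolar RNA host genes were the list with the highest share of members past the F test among lists with at least 9 members tested. All 9 members on the array were tested and 4 (44.4%) passed, beside 248 of 5410 genes (4.58%) over all genes with 1 probe set each. The median strain range of the list was 1.27 on the log2 scale, beside 0.54 for all genes. Members did not share a direction. In C57BL/6J Snhg6 and Gas5 were higher and no member was lower, beside 108 genes (2%) higher and 171 (3.16%) lower over all genes. In DBA/2J Gas5 was higher and Snhg11 and Snhg1 were lower, beside 15 genes (0.277%) higher and 31 (0.573%) lower. The list was drawn up with earlier results of these data known and is no independent evidence. The Snhg1 call was lost without either DBA/2J array, at adjusted p = 0.218 and 0.104 for the F test.

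Cpsf2, a subunit of the complex that cuts messenger RNAs before polyadenylation, read 39.6 and 28.8 in DBA/2J and 306 to 455 on every other array (log2 difference -3.02 ± 0.16, 8.13-fold, adjusted p = 2.58e-07). Snrpb2, a protein of the U2 spliceosomal particle, read 17.3 and 8.58 in DBA/2J and 105 to 159 elsewhere (-2.41 ± 0.16, adjusted p = 2.58e-06). Both genes thus set DBA/2J apart from all 5 other strains. Hat1, a histone acetyltransferase, split the strains evenly. It read 433 and 526 in 129S6/SvEvTac, 369 and 561 in C57BL/6J, and 573 and 598 in DBA/2J, against 55.8 to 94.6 in A/J, C3H/HeJ and FVB/NJ. The strain range of Hat1 was 7.01-fold. Srp9, a part of the signal recognition particle, showed another even split, with 1047 to 1829 in 129S6/SvEvTac, C57BL/6J and C3H/HeJ and 354 to 515 in A/J, DBA/2J and FVB/NJ (F 37.9, adjusted p = 4.02e-05).

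Kif5b, a heavy chain of the kinesin motor that carries cargo along microtubules, read 18.6 and 23.9 in 129S6/SvEvTac and 30.0 and 26.2 in C3H/HeJ. On the 9 arrays of the other strains it read 214 to 367, and the strain range was 8.43-fold (F 75, adjusted p = 2.79e-06). Strn4, a scaffold of a phosphatase complex, was low in the same strains, at 70.0 and 74.5 in 129S6/SvEvTac and 41.7 and 87.2 in C3H/HeJ, against 403 to 582 elsewhere. Neither gene had a C3H/HeJ or 129S6/SvEvTac array within the range of the rest. Ankrd33b, a protein with ankyrin repeats, spanned the widest range of these genes, 21.2-fold. It read 7.76 and 18.8 in 129S6/SvEvTac, 68.1 to 120 in A/J, and 296 to 637 on all arrays of the other 4 strains.

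Mef2c encodes a transcription factor of neuronal differentiation and synapse number. It read 91.9 and 130 in 129S6/SvEvTac and 106 to 109 in A/J, against 362 to 558 on the 8 other arrays (F 67.2, adjusted p = 3.33e-06). Of its 3 other probe sets 2 gave the same split, while the last was level across strains at means of 587 to 804 (adjusted p = 0.665). Pdxdc1, which has a pyridoxal-dependent decarboxylase domain, was high in C3H/HeJ (387 and 410) and DBA/2J (379 and 361) and at -1.17 to 52.3 on the other 9 arrays, with a strain range of 18.3-fold. This probe set reached the level needed for a test only through these strains, and its F test was passed with no filter on low values. A second Pdxdc1 probe set ran the other way, with means of 28.8 in C3H/HeJ and 18.9 in DBA/2J against 85.5 to 207 in the other strains (adjusted p = 0.00345). The 2 probe sets thus give opposite orders for the same gene name, and no direction for the gene can be taken from them.

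**Figure D2:**
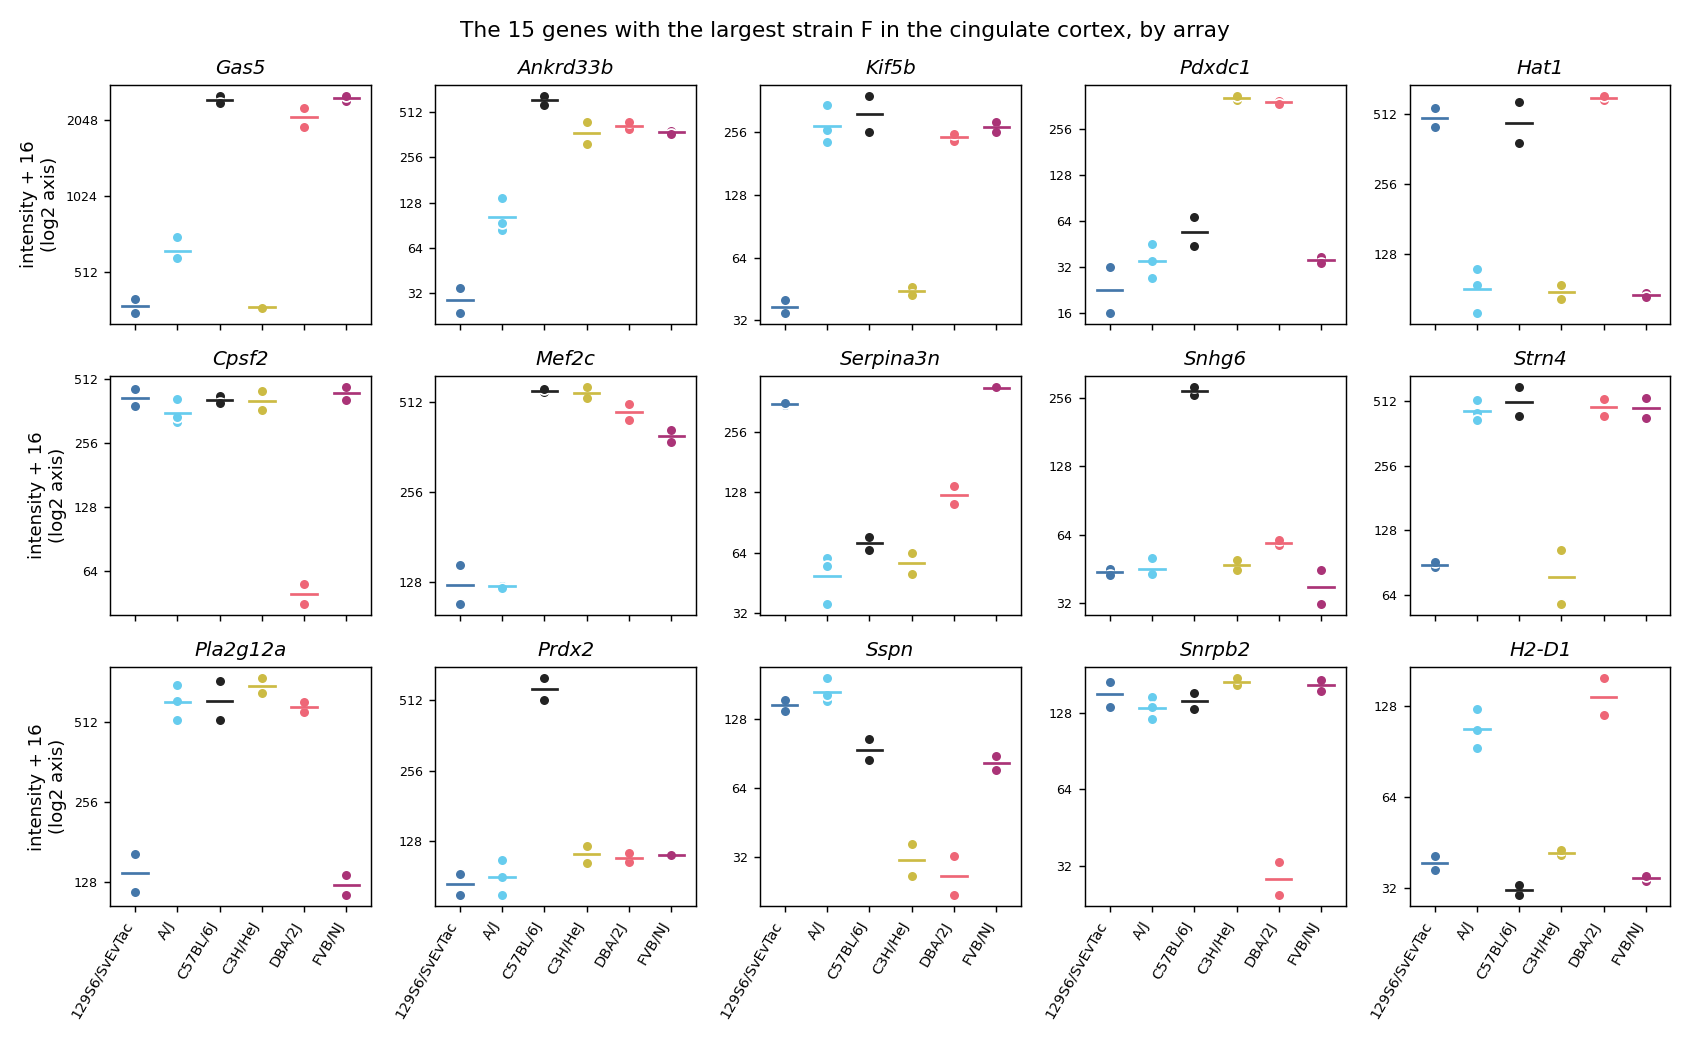
Intensity of the 15 genes with the largest strain F in the cingulate cortex. Each point is 1 array, placed by strain on the x axis, and the y axis is intensity + 16 on a log2 axis with values below 0 set to 0; short lines are means of the log2 values. Strains fall into a high and a low block with no overlap, as for Gas5 and Kif5b, or 1 strain stands alone, as DBA/2J for Cpsf2 and Snrpb2 and C57BL/6J for Snhg6 and Prdx2.

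In 129S6/SvEvTac, the highest named gene was Serpina3n, a secreted serine protease inhibitor made by astrocytes. It read 333 and 340 there and 404 and 412 in FVB/NJ, 96.3 and 121 in DBA/2J, and 19.5 to 60.7 in the other 3 strains. The log2 difference was 1.81 ± 0.19 (adjusted p = 0.000163) for 129S6/SvEvTac and 2.12 ± 0.19 (adjusted p = 5.56e-05) for FVB/NJ. Pcbp2, an RNA-binding protein, read 499 and 714 in 129S6/SvEvTac and 416 and 549 in C57BL/6J, against 131 to 180 on all other arrays. Fxyd2, a regulatory subunit of the sodium-potassium pump, read 102 and 149 against 11.8 to 49.2 elsewhere (1.61 ± 0.24, adjusted p = 0.00259). Its difference was 1.37 without replicate 2, and the call was lost. Fxyd2 reached the level needed for a test only through 129S6/SvEvTac, and its call was kept with no filter on low values. Ppdpf read 327 and 215 against 49.7 to 199.8 (1.47 ± 0.26, adjusted p = 0.00928, and 0.313 without replicate 1). The lowest genes of 129S6/SvEvTac were Ankrd33b (-3.50 ± 0.20), Kif5b (-2.36 ± 0.18), Strn4 (-1.92 ± 0.20) and Gas5 (-1.73 ± 0.14). Pdxdc1 was lower on the first probe set above (-2.17 ± 0.24), and its other probe sets gave 0.29 and 0.64.

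A/J was marked by Mtm1, a phosphatase of membrane phosphoinositides, which read 388, 416 and 600 there and 76.3 to 144 on the 10 other arrays (log2 difference 2.08 ± 0.15, adjusted p = 8.73e-06). Itgb1bp1, which binds the tail of beta-1 integrin, read 184, 184 and 194 against 45.3 to 68.0 (1.44 ± 0.12, adjusted p = 1.57e-05). Vsnl1, a calcium sensor of neurons, was already bright and read 3535, 3779 and 4386 against 1002 to 2490 (1.20 ± 0.19, adjusted p = 0.00493). None of these genes had an A/J array within the range of the rest. On the low side, Hopx, a small homeodomain protein that does not bind DNA, read 111 to 164 in A/J against 377 to 702.5 (-2.06 ± 0.15, adjusted p = 8.73e-06). Traf6, a ubiquitin ligase of innate immune receptors, read 26.5, 43.9 and 68.6 against 147 to 355 (-2.15 ± 0.21, adjusted p = 7.49e-05). Fjx1 read -3.52, 7.91 and 14.7 against 15.4 to 102 (-1.71 ± 0.20, adjusted p = 0.000309).

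C57BL/6J had the largest set of differences, and both of its arrays shared their scan day with a single other array. Choroid plexus RNA stood apart on 1 of them, as given with the marker lists. With scan day as a fixed block and FVB/NJ left out, which leaves fewer arrays, 2 calls were made. In that fit 90 of the 91 calls kept their sign, at a median log2 difference of 1.2 in place of 1.16. Of the 91, 58 kept their sign at an unadjusted p below 0.05 in limma's test. The calls were chosen on these same arrays, and both C57BL/6J arrays stayed in the fit. Kept signs and a similar median were thus likely beforehand and do not separate strain from scan day. The same counts over all tested probe sets were not made. Prdx2, a peroxiredoxin that removes hydrogen peroxide, read 620 and 498 on 1 probe set against 59.2 to 107 elsewhere (2.51 ± 0.17, adjusted p = 2.12e-06). A brighter Prdx2 probe set was level, at means of 1852 to 2285 (adjusted p = 0.793). Gsr, the reductase that restores glutathione, read 42.8 and 31.1 in C57BL/6J against 66.9 to 230 on the other arrays (-1.63 ± 0.27, adjusted p = 0.00438, and 0.087 without C57BL/6J replicate 2). Nnt, the mitochondrial transhydrogenase that supplies NADPH and is deleted in part in this substrain, read 117 and 75.4 in C57BL/6J against 116 to 228 elsewhere, so 1 array overlapped. Its log2 difference was -0.73 ± 0.16 (adjusted p = 0.022), and without C57BL/6J replicate 2 it was -0.46 (adjusted p = 0.297), so that the call rests on that array.

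Kcnj9, a subunit of the potassium channels opened by G proteins, read 63.9 and 107 against 408 to 722.5 on every other array (-2.63 ± 0.19, 6.17-fold, adjusted p = 6.29e-06), although a second Kcnj9 probe set was not lower (0.26). Frzb, a secreted antagonist of Wnt, read 18.1 and 0.24 in C57BL/6J, 27.9 and 35.7 in 129S6/SvEvTac, and 103 to 172 in the other strains (-2.36 ± 0.24, adjusted p = 0.00015). Hars, the histidyl-tRNA synthetase, read 154 and 109 against 508 to 797 (-2.08 ± 0.17, adjusted p = 1.93e-05). Tulp3, a protein of ciliary transport, read 228 and 245 against 15.7 to 61.2 (2.41 ± 0.26, adjusted p = 0.000203), and Pttg1, the securin of chromosome segregation, 263 and 225 against 6.88 to 68.6 (2.17 ± 0.29, adjusted p = 0.00123). Tulp3 reached the level needed for a test only through C57BL/6J, and its call was kept with no filter on low values. Ccr6, a chemokine receptor, read -0.99 and 35.3 against 62.4 to 150 (-2.04 ± 0.29, adjusted p = 0.00197).

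In C3H/HeJ, the highest genes were Pdxdc1 on the probe set above and Rnf14, a ubiquitin ligase that binds the androgen receptor. Rnf14 read 2665 and 2594 in C3H/HeJ and 2082 and 2358 in FVB/NJ, against 405 to 787 on the other 9 arrays. The log2 difference was 1.69 ± 0.20 (adjusted p = 0.00108) in C3H/HeJ and 1.39 ± 0.20 (adjusted p = 0.0027) in FVB/NJ, where it was lost without replicate 2 (adjusted p = 0.103). A second Rnf14 probe set was highest in the same strains, at means of 95.2 and 68.8 against 40.3 to 44.4, and it reached the level needed for a test only through them. Casp9, the initiator caspase of the mitochondrial death pathway, read 294 and 201 in C3H/HeJ against 62.4 to 151 (1.17 ± 0.18, adjusted p = 0.00588, and 0.166 without replicate 1). Hbegf, a ligand of the epidermal growth factor receptor, read 164 and 163 against 32.0 to 97.0 (1.16 ± 0.20, adjusted p = 0.012). With only 1 C3H/HeJ array left, the Hbegf difference stayed at 1.16 or 1.17 and its adjusted p was 0.14 or 0.158.

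In DBA/2J, Psmb6, a catalytic subunit of the proteasome, read 51.1 and 50.1 against 114.5 to 261 (-1.60 ± 0.21, adjusted p = 0.000904). Sspn, a membrane protein of the dystrophin complex, was low in DBA/2J (16.5 and 5.81) and C3H/HeJ (10.5 and 20.5), intermediate in FVB/NJ and C57BL/6J (60.4 to 88.8), and high in 129S6/SvEvTac and A/J (122 to 177). Pam, the enzyme that amidates neuropeptides, read 140 and 203 in DBA/2J and 107 and 227 in 129S6/SvEvTac, against 0.89 to 63.7 on the other 9 arrays. It reached the level needed for a test only through these strains, and its F test was lost with no filter on low values (adjusted p = 0.0909). Its log2 differences were 1.90 ± 0.38 (adjusted p = 0.0293) and 1.78 ± 0.38 (adjusted p = 0.0295), and its replicates were wide apart, so the DBA/2J call was lost without either DBA/2J array (adjusted p = 0.196 and 0.405) and the 129S6/SvEvTac call without either of its own arrays (0.0697 and 0.392) or without 1 array of A/J, C57BL/6J or DBA/2J (0.0518 to 0.0548). Map2, a microtubule protein of dendrites, was dim and read 57.4 and 76.9 in DBA/2J against 9 to 33.4 (1.28 ± 0.26, adjusted p = 0.0305). It reached the level needed for a test only through DBA/2J, the call was lost with no filter on low values (adjusted p = 0.21) and without either DBA/2J array (0.203 and 0.434), and it did not pass the F test (adjusted p = 0.0963).

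FVB/NJ, whose scan day cannot be told apart from its strain, had most of its calls on the low side. Glg1, a Golgi glycoprotein, read 48.2 and 54.3 against 192 to 438 (-2.28 ± 0.20, adjusted p = 5.56e-05). Mff, the receptor that recruits the mitochondrial fission machinery, read 786 and 755 against 2005 to 2979 (-1.73 ± 0.14, adjusted p = 5.56e-05). Ddx6, an RNA helicase of processing bodies, read 63.6 and 80.3 against 215 to 494 (-2.11 ± 0.20, adjusted p = 5.56e-05). A second Ddx6 probe set was lower in FVB/NJ by the same measure (-2.04) and the last was not (0.09). Capzb, the beta subunit of the actin capping protein, read 125 and 120 against 354.5 to 509 (-1.73 ± 0.16), and Pla2g12a, a secreted phospholipase, 97.7 and 119 in FVB/NJ and 101 and 147 in 129S6/SvEvTac against 502 to 731. On the high side, Gdpd3, a phosphodiesterase of lysophospholipids, read 243 and 261 in FVB/NJ, 157 and 168 in 129S6/SvEvTac, and 20.4 to 65.4 elsewhere. Gdpd3 reached the level needed for a test only through these strains, and its FVB/NJ call was kept with no filter on low values. Cd59a, which blocks the final complex of complement, read 246 and 275 in FVB/NJ, 30.7 and 38.2 in 129S6/SvEvTac, and 82.55 to 161 in the other strains.

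**Figure D3:**
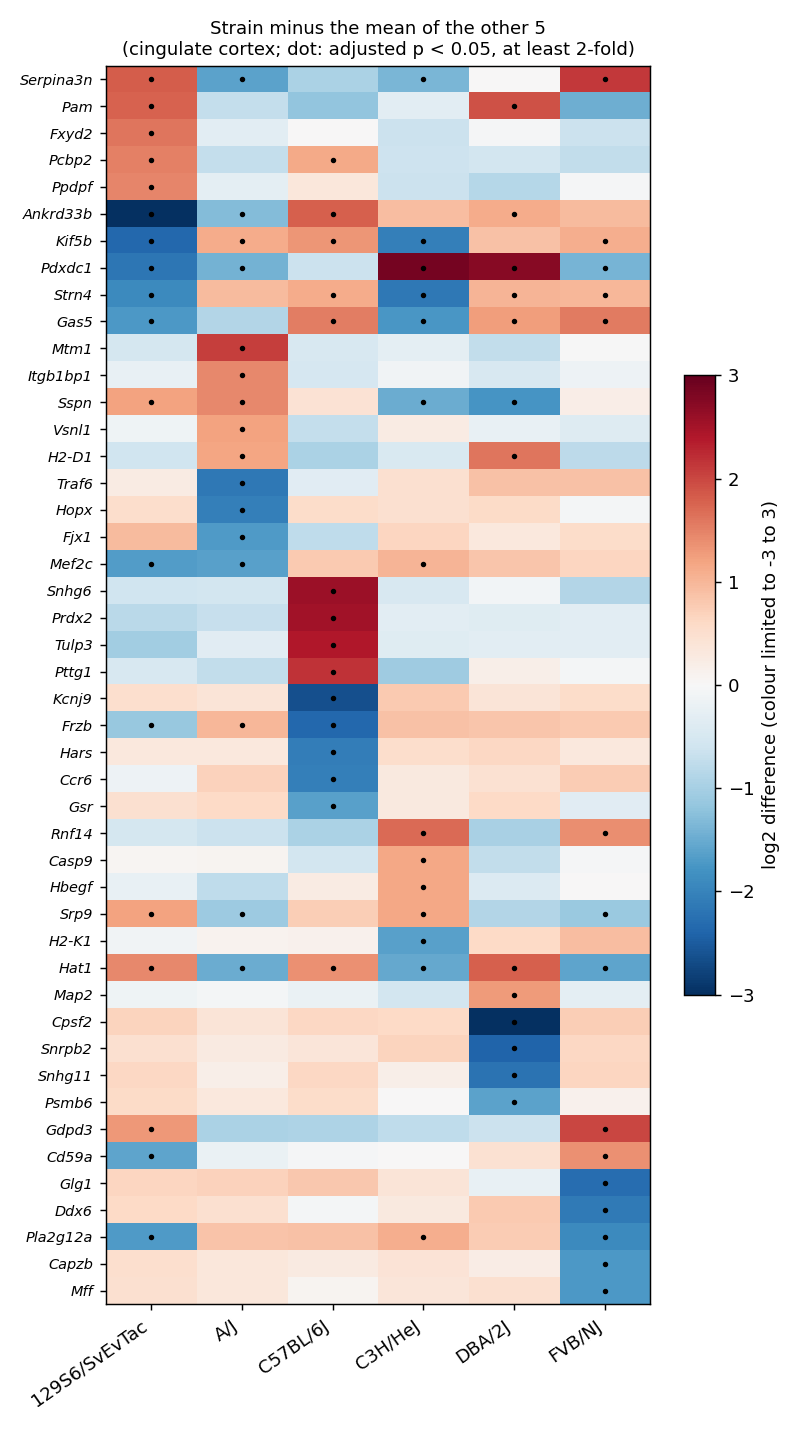
Log2 difference of each strain from the mean of the other 5 in the cingulate cortex, for the 5 highest and 5 lowest genes of each strain. Rows are genes, columns are strains, red is higher and blue lower, with the colour limited to 3, and a dot marks an adjusted p below 0.05 with at least a 2-fold difference. Genes such as Mtm1, Hopx, Kcnj9 and Mff carry a dot in 1 strain, while Hat1 carries one in all 6.

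Glo1 and the enzymes of glutathione were examined because Glo1 and Gsr have been tied to anxiety-like behaviour in mouse strains. Glo1, which clears methylglyoxal, read 2062, 2088 and 2152 in A/J and 712 and 713 in C57BL/6J, and 697 and 776 in FVB/NJ. It lay between these in C3H/HeJ (1205 and 1428), DBA/2J (1656 and 1414) and 129S6/SvEvTac (1410 and 1596). The log2 difference was 0.93 ± 0.12 (adjusted p = 0.000835) in A/J, -0.92 ± 0.14 (adjusted p = 0.00256) in C57BL/6J and -0.86 ± 0.14 (adjusted p = 0.00568) in FVB/NJ. A/J stood above all other strains and C57BL/6J and FVB/NJ below them without overlap, while the 3 strains in between overlapped. The dimmer Glo1 probe set gave 0.78, -0.77 and -0.93 for the same strains (F test adjusted p = 0.0107). With 1 FVB/NJ array left, the FVB/NJ difference was -0.79 or -0.94 and its adjusted p 0.145 or 0.0935. Over the list of glyoxalase and glutathione genes, 3 of 20 members tested (15%) passed the F test, beside 248 of 5410 genes (4.58%). They were Glo1, Gsr and Mgst3, and the passes of Gsr and Mgst3 were lost without single arrays. This list too was chosen with earlier results of these data known. Mgst3, a membrane glutathione transferase, read 285 to 446 in C57BL/6J and DBA/2J and 121 to 239 in the other strains, near the threshold (adjusted p = 0.0478). Of 18 peroxide and superoxide removing genes tested none passed the F test, Prdx2 being represented there by its brighter, level probe set.

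Across all 26 lists of pathway and cell type genes, 352 genes were tested and 28 (7.95%) passed the F test, beside 4.58% of all genes. Only 9 of the 28 passed without each single array in turn, namely Gas5, Glo1, Kcnj9, Pam, Rps28, Scg5, Serpina3n, Snhg6 and Snhg11, and the other 19 were lost without at least 1 array. Genes known to vary between strains had 3 of 6 members past it, namely Kcnj9, Glo1 and Nnt, a list built on such differences. Myo5a, the myosin mutated in the dilute coat colour of DBA/2J, read 214 and 236 in DBA/2J and 222 to 509 elsewhere and did not pass (adjusted p = 0.507). Intensity of the GABA receptor gene Gabra2 was too low for a test in every strain, at 5.84 to 42.6. GABA-A receptor subunits as a group were mostly too dim, with 2 of 10 on the array tested and neither past the F test.

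Lists of neurotransmission genes passed at 0 to 14.3%, with few members each, beside 4.58% of all genes. Of 21 synaptic vesicle and release genes 1 (4.8%) passed, Syt4, a synaptotagmin of dense-core vesicles, which read 26.7 and 117 in 129S6/SvEvTac, 65.0 and 88.0 in FVB/NJ, and 146 to 404 in the others. Its F test was lost without any 1 of the DBA/2J or FVB/NJ arrays (adjusted p = 0.0532 to 0.0688). Of 20 ion channel genes, voltage-gated and inward-rectifier channels among them, 2 (10%) passed, Kcnj9 and Cacna1c, an L-type calcium channel subunit that read 80.6 and 32.4 in FVB/NJ against 137 to 360 (log2 difference -1.72 ± 0.25, adjusted p = 0.00274). Cacna1c did not pass the F test without FVB/NJ replicate 2 (adjusted p = 0.0773). Of 7 glutamate receptor genes 1 passed, the AMPA receptor subunit Gria3, at 44.9 and 31.1 in FVB/NJ against 55 to 131, and its F test was lost without 129S6/SvEvTac replicate 2 (adjusted p = 0.0602) or FVB/NJ replicate 2 (0.138). None of 14 monoamine receptor and metabolism genes passed. Of 17 neuropeptide genes 2 passed, Pam and Scg5, a chaperone of prohormone convertase that read 1375 and 1455 in FVB/NJ, 444 and 481 in C3H/HeJ, and 642 to 1348 in the other strains (F 22.2, adjusted p = 0.000477).

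Genes of basic cell functions passed at about the background share. Of 46 mitochondrial respiratory chain genes, 2 (4.3%) passed: Sdha, the catalytic subunit of complex II, read 308 and 293 in C57BL/6J against 357 to 731 elsewhere (-0.86 ± 0.16, adjusted p = 0.00843, with the F test lost without either C57BL/6J array at 0.052 and 0.0654), and Ndufa7, of complex I, read 327 and 453 in DBA/2J against 489 to 1015. Of 34 proteasome genes, 2 (5.9%) passed, Psmb6 and Psme3. Psme3, an activator of the proteasome, read 146 and 89.2 in C57BL/6J against 223 to 367. Of 26 cytosolic ribosomal protein genes, 1 (3.8%) passed, Rps28, which read 1808 and 2350 in DBA/2J and 2521 and 2719 in FVB/NJ against 4218 to 6342. Among 16 immediate early genes, which neurons transcribe after activity, only Jun passed, at 112 and 97.9 in C57BL/6J against 180 to 318 (-1.06 ± 0.17, adjusted p = 0.00415). The F test for Jun was lost without either C57BL/6J array (adjusted p = 0.115 and 0.198). Of 11 histocompatibility genes 1 passed, H2-D1, a class I antigen that presents peptides. Over all lists 15 members passed without DBA/2J replicate 1.

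H2-D1 has probe sets that disagree. The one with the largest F read 77.0 to 110 in A/J and 104 and 143 in DBA/2J, against 14.3 to 26.8 on the other 8 arrays (adjusted p = 1.89e-05). It reached the level needed for a test only through A/J and DBA/2J, and its F test was passed with no filter on low values. A brighter one was highest on average in DBA/2J (306 and 269), overlapping the other strains at 84.1 to 284 (adjusted p = 0.0499). The last had its highest mean in FVB/NJ, at 177, overlapping C57BL/6J (adjusted p = 0.0442). Class I genes are alike in sequence and vary in sequence between strains, and these probe sets carry the suffix that the array's maker gives to sets shared by several genes. H2-K1 on such a probe set read 2.57 and -8.74 in C3H/HeJ, below all other arrays (11.7 to 60.1), while its brighter probe set did not pass the F test (adjusted p = 0.20).

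Markers of cortical tissue were present. None of 11 tested cortical glutamatergic and layer genes passed the F test (18 of 26 were on the array). Mef2c was represented there by its level probe set. The summed intensity of the list was 6858 to 8749 over all arrays, with Lmo4 and Tbr1 as its brightest members. Both DBA/2J sums (8404 and 8749) lay above those of the other strains (6858 to 8318). Tbr1, a transcription factor of cortical projection neurons, read 1915 to 2935, while Camk2a on its probe set read -26.2 to 22.9. Of the 4 hippocampal genes tested, 2, Wfs1 among them, were lower in C57BL/6J at an adjusted p below 0.05, beside 171 of 5410 genes (3.16%). The summed intensity of that list was 1190 and 1193 there against 1456 to 1994 in the other strains. Wfs1 is its brightest member, so the sum in part repeats the Wfs1 values. Wfs1, an endoplasmic reticulum protein, read 489 and 491 in C57BL/6J against 679 to 1323 elsewhere (-0.93 ± 0.19, adjusted p = 0.0123). Its pass of the F test was lost without single arrays. Prox1, which defines granule cells of the dentate gyrus, was at -8.0 to 18.1. Of 14 GABA interneuron genes 2 (14.3%) passed the F test, beside 4.58% of all genes, and both passes were lost without single arrays. The F test of Slc32a1 was lost without either DBA/2J array (adjusted p = 0.0675 and 0.0745), and that of Dlx1 without any of 6 arrays (0.0533 to 0.319). Slc32a1, which loads GABA into vesicles, read 746 and 726 in DBA/2J against 1464 to 2044 (-1.21 ± 0.15, adjusted p = 0.000726), and Dlx1, a transcription factor of interneurons, read 52.8 and 22 in C57BL/6J against 85.9 to 135 (-1.29 ± 0.21, adjusted p = 0.00432). Gad1, which makes GABA, spanned 1297 to 2968 and did not pass.

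Of 10 myelin genes tested, 2 (20%) passed the F test, beside 4.58% of all genes. Mbp, myelin basic protein, read 718 and 570 in 129S6/SvEvTac and 1895 and 2107 in C57BL/6J, with the other strains at 833 to 1585 (F 11.5, adjusted p = 0.00841, and 0.0578 without 129S6/SvEvTac replicate 2). Mobp, another myelin protein, read 792 and 330 in 129S6/SvEvTac, 355 and 491 in DBA/2J, 967 and 1108 in FVB/NJ and 1206 and 1424 in C57BL/6J (adjusted p = 0.0489). The summed intensity of the 13 myelin genes on the array was 3264 and 4560 in 129S6/SvEvTac, 3689 and 4044 in DBA/2J, 4249 to 5265 in A/J, and 4368 and 5006 in C3H/HeJ. It was highest in FVB/NJ (5719 and 6075) and C57BL/6J (6051 and 6841), whose arrays all lay above those of the other strains. They were also the only strains with 2 scans on every array, and a part of the scans in these sums was not tested. In FVB/NJ all 10 tested members lay above the mean of the other strains (median 0.43), and 1 of them passed the test of that comparison, beside 22 of 5410 genes (0.407%) higher and 32 (0.591%) lower. In C57BL/6J 8 of 10 did (median 0.28), and 1 was called higher, beside 108 of 5410 genes (2%). In 129S6/SvEvTac 2 of 10 were called lower, beside 42 of 5410 genes (0.776%), and none higher, beside 20 (0.37%). A second Mbp probe set was level at means of 324 to 419. The part of white matter in the dissected tissue was not tested.

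The lists of other cell types had few members past the F test, as did all genes (4.58%). Of 15 astrocyte genes only Serpina3n passed, with the summed intensity of the list between 23368 and 29284. No microglia and complement gene (10 tested) and no endothelial or pericyte gene (12 tested) passed. Of 14 meningeal genes 1 passed, Ogn, an extracellular matrix proteoglycan, lowest in C57BL/6J (63.6 and 80.4 against 75.7 to 182), and the sum of the list varied within strains, from 4008 to 7580 between the 129S6/SvEvTac arrays. The choroid plexus list stood out on 1 array. Its sum was 340 and 2658 on the C57BL/6J arrays against 153 to 601 elsewhere, and Ttr, the transthyretin that defines choroid plexus, read 2427 on C57BL/6J replicate 1 and 58.4 to 467 on all others. Without that array C57BL/6J had 92 calls in place of 91, and without the other array 80. Of 7 blood genes on the array 3 were tested and none passed the F test, and the sum of the list ranged from 217 to 1532.

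**Figure D4:**
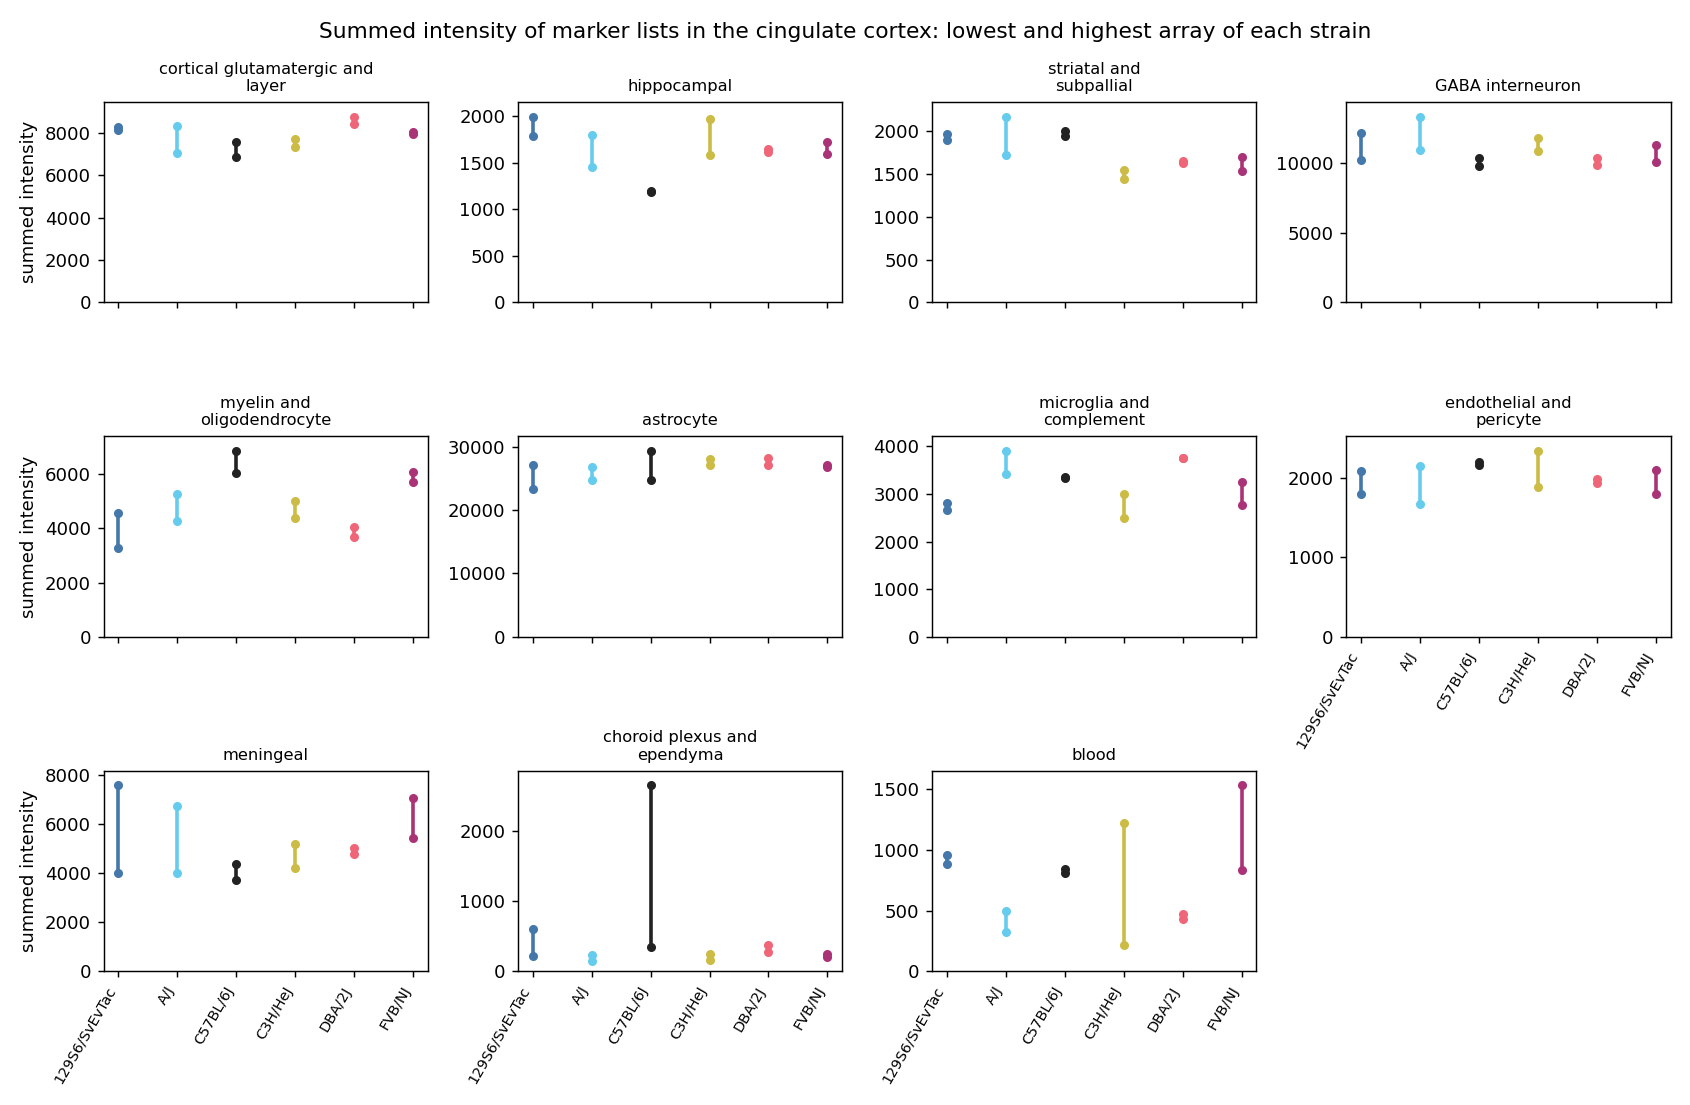
Summed intensity of the genes of each marker list in the cingulate cortex, with values below 0 set to 0. Points joined by a line are the lowest and the highest array of a strain, and every y axis starts at 0. Cortical and astrocyte sums are level, myelin sums are highest in C57BL/6J and FVB/NJ, and 1 C57BL/6J array stands apart for choroid plexus at 2658.

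The amygdala, labelled by the same 2 rounds, was used to see whether strain differences of the cingulate cortex were found elsewhere. Of the 301 calls, 281 had the same sign in the amygdala and 155 were also at least 2-fold there, with a median difference of 1.27 in the cingulate cortex and 1.03 in the amygdala on the log2 scale. The calls were chosen by their size in the cingulate cortex, which by itself makes smaller differences likely in any other tissue. The same counts over all tested probe sets were not made, so these have no background share beside them. Of the 13 cingulate arrays 9 name a mouse that also gave an amygdala array, so the tissues are not independent. The share was lowest for C57BL/6J, where 80 of 91 kept their sign and 30 were at least 2-fold, at medians of 1.16 and 0.65. For 129S6/SvEvTac it was 57 of 58 with 40 at least 2-fold, at medians of 1.42 and 1.36. C3H/HeJ kept the sign in 30 of 30, FVB/NJ in 48 of 50, A/J in 33 of 36 and DBA/2J in 33 of 36.

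Set against the mean of 4 other regions (hypothalamus, periaqueductal gray, hippocampus and bed nucleus of the stria terminalis), 255 of the 301 calls kept their sign, 73 were at least 2-fold, and the median difference was 0.61. Those 4 regions were labelled in 1 round, so region and labelling cannot be told apart in this comparison. The limit from choosing calls by their cingulate size holds here too. For C57BL/6J 62 of 91 kept their sign and the median was 0.14. Snhg6 was alike everywhere, at 2.57 in the cingulate cortex of C57BL/6J, 3.08 in the amygdala and 2.50 to 2.65 in the 4 other regions. Slc32a1 in DBA/2J was at -1.21 in the cingulate cortex, -1.20 in the amygdala and -1.55 to -1.20 in the others. Vsnl1 in A/J was at 1.20 and 1.37 in the tissues of 2 rounds and at -0.10 to 0.06 in the others. Jun in C57BL/6J was at -1.06 in the cingulate cortex, -0.25 in the amygdala and -0.32 to 0.11 in the others, and Dlx1 at -1.29, -0.77 and -0.21 to 0.32.

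**Figure D5:**
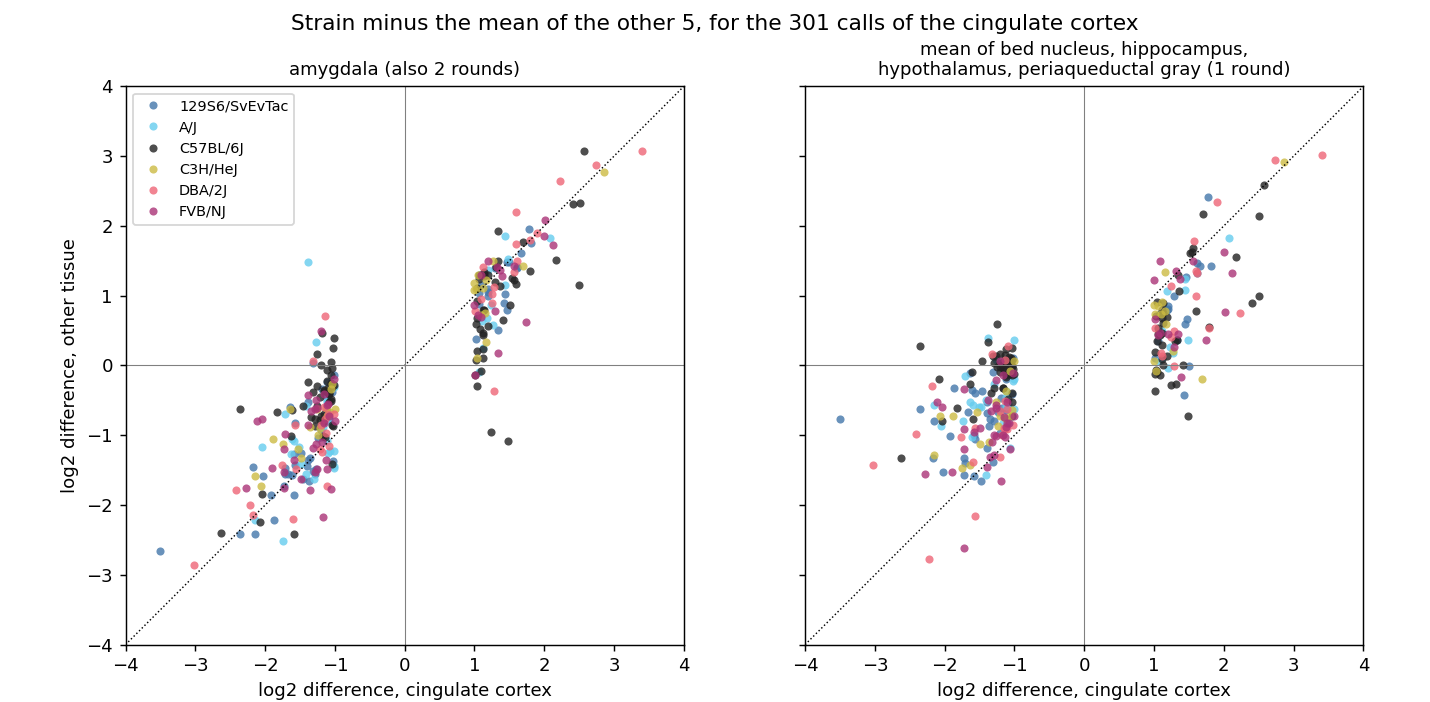
Log2 difference of a strain from the mean of the other 5 for the 301 calls of the cingulate cortex (x axis), against the same difference in the amygdala (left, y axis) and in the mean of 4 brain regions labelled in 1 round (right, y axis). Each point is a probe set and strain, coloured by strain, and the dotted line marks equal differences. Most points keep their sign (281 of 301 on the left and 255 on the right), and many of C57BL/6J lie near 0 on the right.

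Few strain differences were shown to depend on the tissue when the cingulate cortex was compared with the amygdala: 12 of 7436 probe sets (0.161%) passed the F test of that difference. That fit took the arrays as independent, although 9 of the 13 cingulate arrays share a mouse with an amygdala array. With the set of mice named for an array as a random block 12 also passed. That block joins only arrays naming the same mice in full, so it does not cover pools that overlap in part. Lrp10, a lipoprotein receptor relative, had the largest F (20.3, adjusted p = 0.00224) on a dim probe set that read -5.21 to -4.12 in the cingulate cortex of A/J and a mean of 63.9 in its amygdala, while C57BL/6J went the other way, at 56.8 and 3.52 (means taken on the log2 scale). Since every A/J value was below 0 and set to 0, the size of this difference depends on the offset and no fold is given. Lrp10 also entered this test through the groups in which it was high. Rbmx, a splicing protein, was at 0.37 in FVB/NJ in the cingulate cortex and -0.92 in the amygdala, a difference of 1.29 ± 0.18 (F 17.4, adjusted p = 0.00377). Gsta4, a glutathione transferase, was at 0.40 in C3H/HeJ in the cingulate cortex and -1.10 in the amygdala (difference 1.51 ± 0.28, adjusted p = 0.0416). The count fell to 2 with scan day as a random block and lay between 2 and 28 when 1 cingulate array was left out. The 4 amygdala arrays of A/J and FVB/NJ were scanned on 1 day and those of C57BL/6J on another. Ttr, the choroid plexus marker, read 4093 and 4236 on the FVB/NJ amygdala arrays and 4693 on A/J replicate 1. It read 4610 on 129S6/SvEvTac replicate 2, 2050 on DBA/2J replicate 1 and 79.9 to 797.8 on the other amygdala arrays. Whether choroid plexus in that tissue had a part in these differences was not tested.

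Against the 4 regions labelled in 1 round, 1738 of 7937 probe sets (21.9%) passed the test of the difference. Norad, a long noncoding RNA that binds Pumilio proteins, had the largest F (137, adjusted p = 4.47e-19). In 129S6/SvEvTac it was 1.43 above the other strains in the cingulate cortex and at -0.42 in the 4 regions, and in C57BL/6J at -1.25 and 0.60, so the order of strains was turned. A second, brighter Norad probe set was level in the cingulate cortex, at 4514 to 6539 (adjusted p = 0.484). Gnb1, a G protein beta subunit, read a mean of 43.7 in C57BL/6J and 420.5 to 575 in the other strains in the 4 regions, and 76.0 to 113 in every strain in the cingulate cortex. A neighbouring Gnb1 probe set was higher in FVB/NJ in the cingulate cortex (157 and 142 against 37.7 to 92.1, difference 1.01 ± 0.17, adjusted p = 0.00716).

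Agreement between probe sets of one gene was partial. Of the 301 calls 84, in 48 genes, have another tested probe set with the same gene symbol. In 44 of the 84 all other probe sets had the same sign, in 14 another was called in the same direction, and in 2 another was called in the opposite direction. The same probe sets are counted more than once, most often those of Mef2c, so these counts are not of independent genes. Both opposite calls are 1 pair of Pdxdc1 probe sets in DBA/2J. The same counts over all genes with several probe sets were not made, so no background share stands beside them. Among the named genes, the other tested probe sets of Hat1, Itgb1bp1, Tulp3, Mtm1, Pla2g12a, Kcnj9, Traf6 and Glg1 did not pass the F test (adjusted p = 0.192 to 0.946), while those of Gas5, Glo1 and Rnf14 did. Probe sets of a gene can cover different transcript ends, and whether sequence differences between strains within the probes had a part in any call was not tested.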

How the data were processed

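Affymetrix MG_U74Av2 arrays were read from the series' value table. Its intensities were deposited by the authors on a linear scale after background subtraction, as the values show (7.205% of the cingulate values lie below 0). Neither the software nor the scaling behind them is given in the sources used here. The 66 control probe sets among 12488 were dropped. A symbol was given to 10833 of the other 12422 through the platform annotation, several symbols to 396 and none to 1193, and 10817 symbols were updated by gene ID through a RefSeq table.

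Negative values were set to 0, 16 was added and log2 taken. Probe sets whose highest strain mean exceeded the median of all values (48.72) were fitted with limma 3.58.1 in R 4.3.3, with a mean per strain over the 13 arrays. P-values were adjusted by Benjamini-Hochberg over all 7041 tested, and all p-values in the text come from such fits. Scripts were tested on simulated data. Replicate numbers come from the labels and did not pair the arrays.

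Named genes were the 15 with the largest F, the 5 highest and 5 lowest of each strain, the 8 with the largest region difference in each test, up to 4 members of each list past the F test, and a fixed set including Glo1, Gsr, Nnt, Myo5a and Gabra2. Members and lists were chosen with earlier results of these data known. Alternatives covered the offset, the filter, normalization, the fitted arrays, robust and blocked fits and each array left out.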

Additional observations from a re-analysis of the deposited data

Results flagged for a closer look

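For each of the genes below, the strain differences of the cingulate cortex differed from those of other tissue in limma's F test of that difference. Against the amygdala, Lrp10 had an F of 20.3 (adjusted p = 0.00224), on a probe set whose A/J values were all below 0 in the cingulate cortex, so that no size is given. Rbmx had an F of 17.4 (adjusted p = 0.00377), with FVB/NJ at 0.37 on the log2 scale in the cingulate cortex and -0.92 in the amygdala. Rad54l, a DNA repair protein, had an F of 12.1 (adjusted p = 0.0408), with FVB/NJ at -0.68 and 0.83. It was dim, with strain means of 11.4 to 56.0 over both tissues, the highest in the FVB/NJ amygdala. Like Lrp10, it entered the test through groups in which it was high. At an adjusted p of 0.0416 followed Gsta4 (F 11.3), Ybx2 (F 10.9, C3H/HeJ at 0.48 and -0.66), Smad4, a mediator of TGF-beta signals (F 10.5, FVB/NJ at 0.41 and -0.52), Celsr2, a cadherin of planar polarity (F 10.4, A/J at -0.41 and 0.75), and Capn7, a calpain (F 10.2, C57BL/6J at -0.89 and -0.02). These lie near the threshold. Only 2 probe sets in all passed this test with quantile normalization, and only 2 with scan day as a random block.

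Against the 4 regions labelled in 1 round, where region and labelling cannot be told apart, the F values were larger. Norad had an F of 137 and Gnb1 an F of 73.3, with C57BL/6J at -0.03 in the cingulate cortex and -3.03 in the 4 regions. Pcbp2 had an F of 65.0, with 129S6/SvEvTac at 1.5 and -0.01, and Rnf14 an F of 59.9, with C3H/HeJ at 1.69 and -0.20. For Frzb (F 34.6) C57BL/6J was at -2.36 and 0.28, and for Ankrd33b (F 32.4) 129S6/SvEvTac was at -3.50 and -0.77. Kif5b (F 27.8) was at -2.36 and -0.62 in 129S6/SvEvTac. Thrsp, a regulator of lipid synthesis (F 26.8), was at -0.96 and -0.12 in DBA/2J.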

How the results depend on the processing

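Of 117 results for named genes, 104 were called. Each result was refitted in up to 26 alternatives. Of the called results, 33 kept their call in every alternative fitted. A further 36 lost it only with scan day as a fixed block, and 33 lost it without at least 1 array. Differences of FVB/NJ could not be fitted with that block, which leaves the strain out, so their calls were not put to it. Of 104 results, called or not, that were fitted with it, 68 lost their call. None of the 64 called strain differences changed sign, while 2 of the 13 results not called did and 5 gained a call. The F test passed 346 probe sets, 128 with no filter on low values, 590 when fitted over 26 arrays with the amygdala, 2167 over all 87 arrays, and 41 with scan day as a fixed block without FVB/NJ. That block leaves fewer arrays and was chosen after seeing the data, as were the number of scans and the within-day differences. Calls fell with an offset of 64 in place of 16 and with that block: to 34 and 13 in 129S6/SvEvTac, 16 and 6 in A/J, 31 and 2 in C57BL/6J, 10 and 4 in C3H/HeJ (19 with no filter), and 17 and 4 in DBA/2J, and to 24 in FVB/NJ with the offset. The 15 pairs gave 1358 calls in all, 758 with the offset of 64 and 710 with no filter. Gene lists had 28 members past the F test, 44 with that offset, 9 with no filter, 43 over 26 arrays, 117 over 87 and 6 with the block. Against the amygdala 12 probe sets passed, 29 with that offset, 2 with quantile normalization, 2 with scan day as a random block and 6 with the replicate block. The cause of these changes was not tested.

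With 1 array left out, the F test passed 211 (without DBA/2J replicate 1) to 340 probe sets. Calls ranged from 43 to 61 in 129S6/SvEvTac, 32 to 39 in A/J, 80 to 98 in C57BL/6J, 13 to 30 in C3H/HeJ, 21 to 42 in DBA/2J and 24 to 52 in FVB/NJ. Pairs gave 1019 to 1371, lists 15 to 27, the amygdala test 2 to 28, and the test against 4 regions 1273 to 2111. The replicate block gave 352 in the F test, and same-numbered arrays of different strains deviated together little (median r 0.075, over 0.1 in 3 of 15 pairs). Values near background limit the folds of dim probe sets.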
